A study of Mus musculus with 6 samples.

Results

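The genes described here are 53 mouse genes of the complement system and of blood coagulation, with their regulators. They were taken from a list of symbols by function, with no threshold on their values. The list was chosen with earlier results of these data known. Of the 53, 52 had a row among the 12027 genes of the deposited count table. C5ar1, a receptor for a fragment of the complement protein encoded by Hc, had none and was not analysed here. By role, 30 of the 52 belong to complement and 22 to coagulation and fibrinolysis. By the cell that is mainly known to make them, 41 were classed as hepatocyte genes, 6 as macrophage or myeloid genes (C1qa, C1qb, C1qc, Fcna, Cfp and C3ar1) and 5 as made by other or several cell types (Cfd, Cd55, Cd59a, Clu and Tfpi).

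Whole-liver mRNA was sequenced from male C57BL/6 mice aged 8 weeks, after partial hepatectomy (PHX), an operation that removes part of the liver and is followed by regrowth. The knockout mice lacked, in hepatocytes, either OGT (genotype OGT-/y, control OGTfl/y) or OGA (OGA-/-, control OGAfl/fl). OGT attaches the sugar O-GlcNAc to intracellular proteins and OGA removes it. The OGA-KO libraries and their controls were from days 14 and 28, and the OGT-KO library and its control were from day 28. All 6 groups had undergone PHX. Which promoter drives the Cre recombinase is not given in the sources used here. Each group was 1 library made from the pooled RNA of 3 mice. No difference within a pair could therefore be set against a spread between mice or between replicate libraries.

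Complement and clotting proteins circulate in plasma as inactive precursors, most of them released by hepatocytes, and both systems work as cascades in which one protease cleaves and activates the next. Complement starts from C1q bound to antibody, from lectins bound to microbial sugars, or from C3 itself, and ends in a pore built of terminal components. Coagulation ends in thrombin, which turns fibrinogen into fibrin, and plasmin later dissolves the clot. The liver is also known for exceptions to the hepatocyte rule: C1q, ficolin A and properdin are made mainly by macrophages and other myeloid cells. Fibrinogen and several complement components belong to the acute phase proteins, whose genes hepatocytes switch on in inflammation.

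The libraries held between 20433100 and 29327722 counts. The targeted gene Oga stood at 10.4 against 62.2 CPM (each gene's counts as parts of a library set to the same size) in the OGA-KO pair of day 14 and at 12.8 against 67.2 in that of day 28. Ogt stood at 43.2 CPM in OGT-KO and 58.0 in its control, with 73.4 to 79.4 CPM in the OGA libraries. The ratio of the OGT pair was a log2 of -0.43, but -0.06 when counts were divided by library totals alone, so the Ogt count does not check the OGT-KO label. The scaling matters for every ratio of this pair. Composition scaling by TMM, used throughout unless stated, centres the median gene on a log2 ratio of 0.00, while library totals move that median to 0.36 in the OGT-KO pair and to 0.22 between the controls of day 28.

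In OGT-KO at day 28 the complement and clotting genes split by the cell that makes them. With at least 1 CPM in either library, 28 of 51 were at least 2-fold lower than in control and 7 were at least 2-fold higher. Over all genes the same size rule passed 11.7% lower and 16.4% higher. By library totals, which put the median of all genes at a log2 of 0.36, the size rule gave 23 lower and 8 higher. The 11.7% and 16.4% hold for TMM, and the share of all genes by library totals is not given for this rule. A test over all 6 libraries, the edgeR quasi-likelihood fit with Benjamini-Hochberg adjustment (adjusted p under 0.05), called 36 of 52 as fallen and 9 as risen, where it called 26.6% of all genes as fallen and 26.1% as risen. By library totals the same fit gave 30 fallen and 14 risen members, and over all 12026 genes tested 1862 fallen and 5334 risen. The median log2 change of the 52 was -1.09. This fit had 1 residual degree of freedom, and it lends the OGT pair the spread seen among OGA libraries. A gene is said below to have risen or fallen where this test called it, and intervals in parentheses are 95% counting intervals.

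Of the 41 hepatocyte genes 35 fell, 2 rose and 4 were not called, with a median log2 of -1.48. By library totals 29 fell and 5 rose, with a median of -1.11. Of the 6 macrophage or myeloid genes all rose, with a median of 2.19. The OGT-KO library was the lowest of all 6 for 37 of the 41 hepatocyte genes and the highest for each of the 6 myeloid ones. Over all genes, 36.7% had their lowest level there and 36.9% their highest. Among all members, OGT-KO lay below the other 5 libraries for 38 and above them for 8. In bulk liver, fewer cells of a type and less RNA per cell cannot be told apart.

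**Figure D1:**
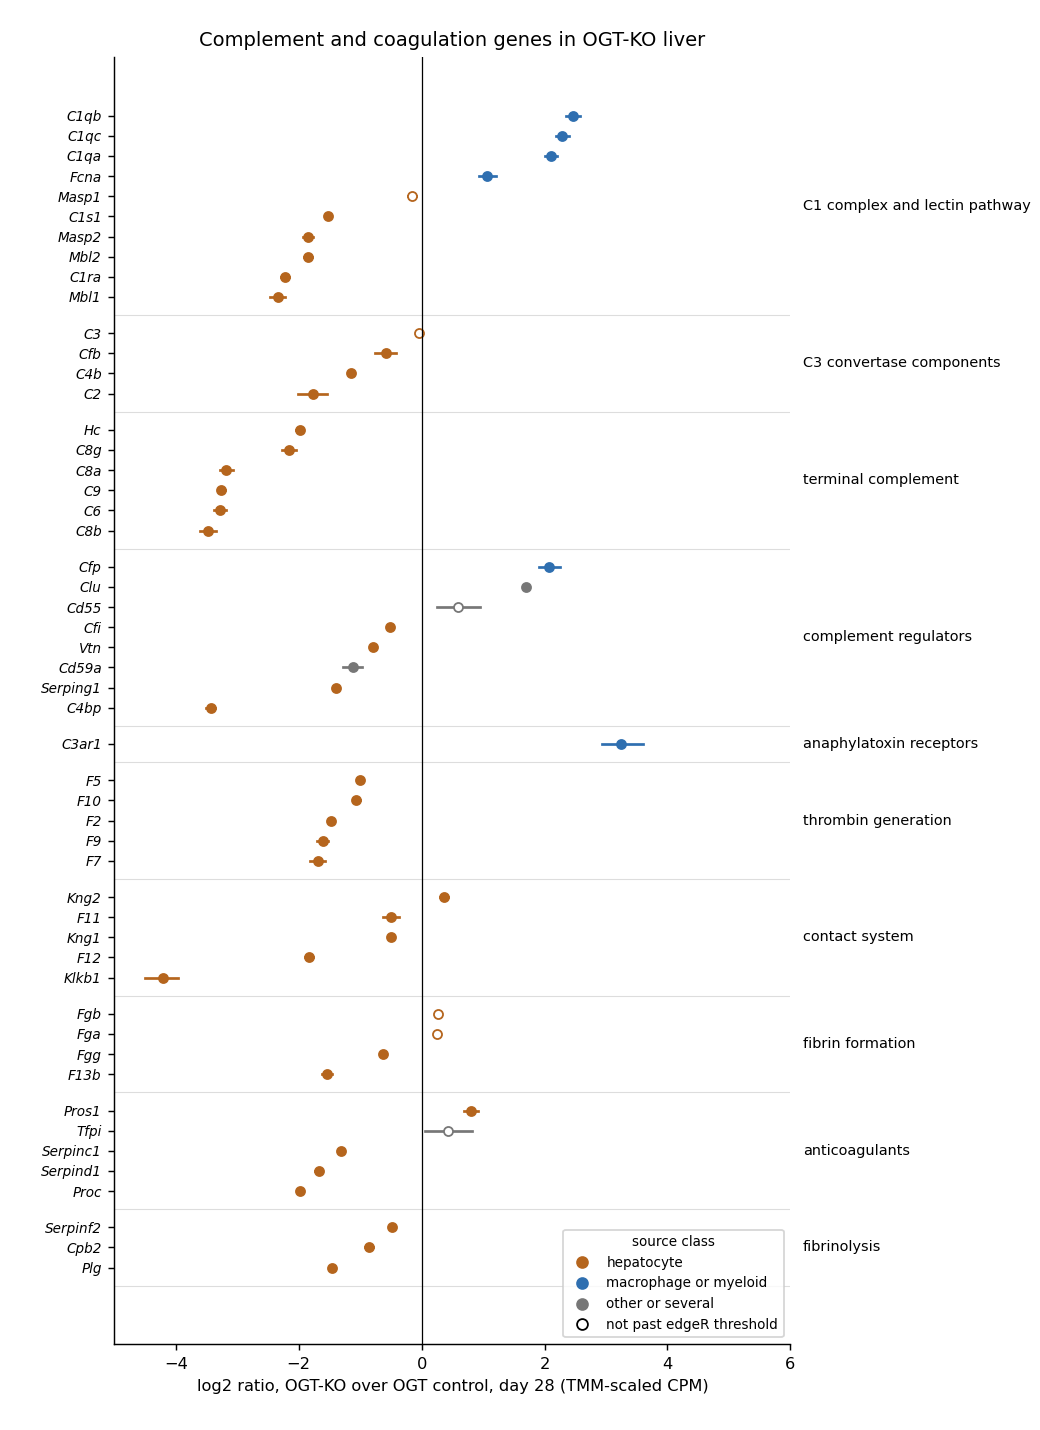
Log2 ratio of CPM, OGT-KO over control at day 28, for the members with at least 1 CPM, in rows grouped by role, with open points where edgeR made no call. Points are single library pairs coloured by the cell that mainly makes the protein, and bars are 95% counting intervals. The 6 terminal complement genes are all below 0, from Hc at -1.99 to C8b at -3.47, and the macrophage or myeloid genes all lie above 0.

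The terminal pathway, whose products assemble into the membrane attack complex, was the role with the lowest median, a log2 of -3.22, and 6 of its 6 genes fell. The promoters of 3 of these genes are printed first, for comparison with those of the fibrinogen genes further on. They are the 250 bases before the transcription start as given by RefSeq for build GRCm38.p6, which is not the build the submitters used for counting. C8a lies on the minus strand at chr4:104876399-104876648, C8b on the plus strand at chr4:104766067-104766316 and C9 on the plus strand at chr15:6445096-6445345. Capitals mark matches to the C/EBP core TTGCNNAA on either strand.
C8a: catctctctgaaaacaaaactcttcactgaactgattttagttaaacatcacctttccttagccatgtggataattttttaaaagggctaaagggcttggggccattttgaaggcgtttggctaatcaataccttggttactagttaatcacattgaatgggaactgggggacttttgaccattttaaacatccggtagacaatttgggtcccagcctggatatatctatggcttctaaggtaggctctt
C8b: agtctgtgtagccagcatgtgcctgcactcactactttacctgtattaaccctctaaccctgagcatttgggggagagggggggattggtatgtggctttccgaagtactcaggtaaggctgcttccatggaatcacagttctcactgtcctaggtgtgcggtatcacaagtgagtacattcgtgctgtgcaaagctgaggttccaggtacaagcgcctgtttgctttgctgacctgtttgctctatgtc
C9: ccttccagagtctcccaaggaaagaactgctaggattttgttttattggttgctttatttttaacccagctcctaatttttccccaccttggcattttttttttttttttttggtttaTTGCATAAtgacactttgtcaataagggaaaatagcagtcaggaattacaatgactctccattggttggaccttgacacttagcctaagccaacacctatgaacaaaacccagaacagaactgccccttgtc

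The C9 window holds TTGCATAA 132 bases before the start, and those of C8a and C8b hold neither this core nor CTGGGAA, the core of the interleukin-6 response element. Both motifs were searched on both strands in windows from 250 bases before to 50 bases after the start. Such windows were found for 42 of the 53 members. TTGCNNAA was in 12 of the 42 (28.6%) and in 10.8% of 27025 genes, and CTGGGAA was in 10 of the 42 (23.8%) and in 11.1% of all genes. The HNF4 core CAAAGTCCA was in 0 of the 42 and in 0.477% of all genes, and the HNF1 consensus in 0 of the 42 and 0.0074% of all genes. A match is a string of letters and was not tested as a binding site.

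C9, which forms the ring of the pore, stood at 932 and 966 CPM in the OGA-KO and control libraries of day 14, at 973 and 1054 in those of day 28, and at 98.8 in OGT-KO against 946 in its control. C6, which joins the growing complex earlier, stood at 391 and 336, at 365 and 403, and at 31.3 against 304 CPM in the same order. The OGT control lay close to the OGA libraries for both genes, and OGT-KO stood alone below. C9 (ENSMUSG00000022149) fell by 3.26 on the log2 scale (interval -3.32 to -3.20, edgeR adjusted p = 9.92e-05), a 9.56-fold difference, and C6 fell by 3.28 (adjusted p = 0.000178), a 9.71-fold difference.

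The 3 chains of C8 showed a second pattern, in which the OGT control was itself low. C8a, the alpha chain, stood at 1098 and 1197 CPM at day 14, at 1062 and 1242 in the OGA pair of day 28, and at 28.7 in OGT-KO against 260 in its control. C8b, the beta chain, stood at 533, 483, 494 and 544 CPM in the 4 OGA libraries and at 20.1 against 223 in the OGT pair. C8g, the gamma chain, stood at 344, 335, 335 and 328 CPM and at 28.4 against 127. Between the controls of day 28 the log2 ratios, OGT line over OGA line, were -2.26 for C8a, -1.28 for C8b and -1.36 for C8g. Within the OGT pair C8a fell by 3.18, C8b fell by 3.47 (11.1-fold) and C8g fell by 2.16, each with an edgeR adjusted p of 0.000168 or less. Hc, the gene of the complement component whose cleavage starts the terminal pathway, also showed this order, with 1299 to 1552 CPM in the OGA libraries, 547 in the OGT control and 138 in OGT-KO (log2 -1.99).

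Ratios within a library do not depend on the scaling. The ratio of C8a to C9 differed between the lines, and its intervals overlapped within the OGT pair. C8a gave 1.09 to 1.24 counts per count of C9 in the 4 OGA libraries, 0.275 (0.267 to 0.283) in the OGT control and 0.290 (0.268 to 0.314) in OGT-KO. Both OGT values lie below every OGA library. Summed over the 6 genes, terminal complement held 0.408% to 0.456% of all counts in the OGA libraries, 0.254% in the OGT control and 0.0472% in OGT-KO.

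**Figure D2:**
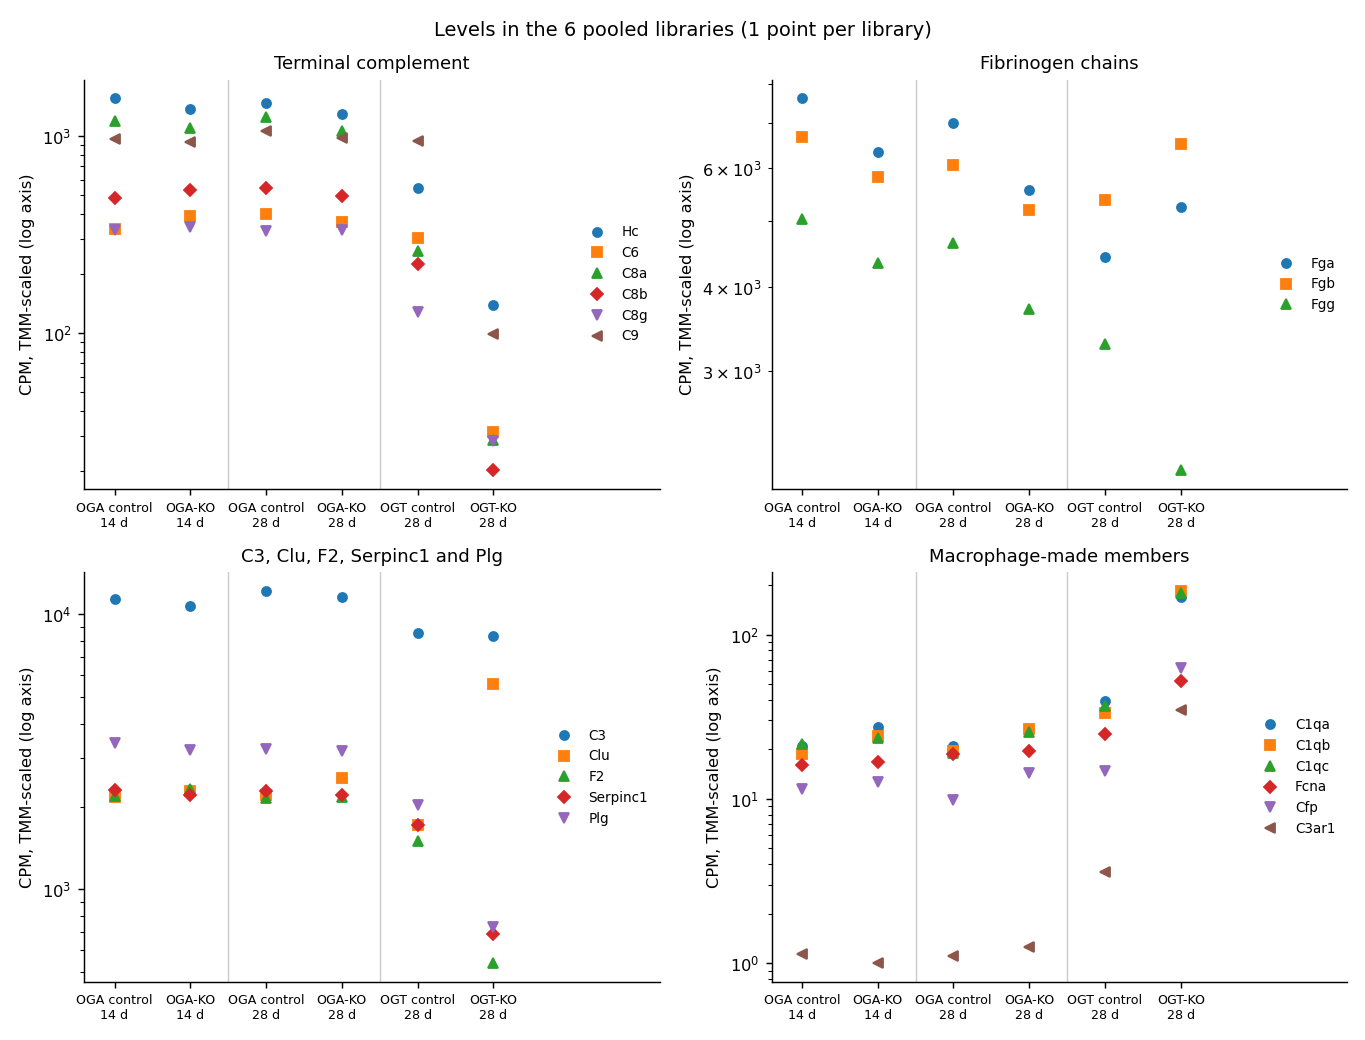
CPM of selected members in each of the 6 libraries, on log axes, 1 point per library, with panels for terminal complement, fibrinogen chains, other abundant members and macrophage-made members. C8a steps down from 1062 to 1242 CPM in the OGA libraries to 260 in the OGT control and 28.7 in OGT-KO, while C9 is low in OGT-KO alone.

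The genes that start complement split within a single molecule. C1q is a bundle of 3 chains encoded by C1qa, C1qb and C1qc, and the proteases C1r and C1s, made largely by hepatocytes, sit inside it. C1qa (ENSMUSG00000036887) stood at 27.5 and 20.9 CPM at day 14, at 26.2 and 21 in the OGA pair of day 28, and at 168 in OGT-KO against 39.2 in its control. C1qb stood at 24.3, 18.8, 26.6 and 19.5 CPM and at 184 against 33.4, and C1qc at 23.6, 21.4, 25.6 and 19.0 CPM and at 178 against 36.5. OGT-KO was several times above all other libraries, and its control was above every OGA library. The rises were 2.10, 2.46 and 2.28 on the log2 scale (edgeR adjusted p = 0.000154, 0.000128 and 0.000227). In the same pair C1ra, the C1r protease, went from 372 to 79.6 CPM and fell by 2.22, and C1s1, the C1s protease, went from 532 to 185 and fell by 1.53. C1qb and C1qc kept nearly equal counts in every library, from 0.878 to 1.04 counts of C1qb per count of C1qc.

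Other macrophage products went the same way as C1q. C3ar1, the receptor for the C3a fragment, stood at 0.999 to 1.25 CPM in the OGA libraries, 3.60 in the OGT control and 34.5 in OGT-KO, where it had 964 counts against 83. It rose by 3.24 (2.94 to 3.60), the highest ratio among the members. Cfp, properdin, which stabilises the alternative C3 convertase, stood at 9.82 to 14.3 CPM in the OGA libraries and at 62.3 against 14.7 in the OGT pair, and rose by 2.08. Fcna, ficolin A, a lectin of the complement lectin pathway, rose by 1.06 from 24.8 to 51.9 CPM.

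Macrophage markers moved with these genes. Of 12 Kupffer cell markers 8 rose and none fell (median log2 1.48). Their summed level was 267 to 332 CPM in the OGA libraries, 595 in the OGT control and 1265 in OGT-KO, and no marker was at 0 in any library. Csf1r, a receptor on macrophages, rose by 2.15 and Cd68, a lysosomal protein, by 2.31, Clec4f, a Kupffer cell lectin, by 0.48, while Timd4, a marker of resident Kupffer cells, stood at -0.19 (0.17 by library totals) and was not called. All 6 recruited macrophage markers with a row rose, of 12 listed, and they summed to 77.1 to 94.9 CPM in the OGA libraries, 117 in the OGT control and 810 in OGT-KO. C1qa gave 0.788 counts per count of Csf1r in OGT-KO and 0.814 in its control, with overlapping intervals (0.758 to 0.819 and 0.745 to 0.889). Per count of Adgre1, the F4/80 antigen, it gave 4.14 in OGT-KO and 3.08 in control, and per count of Cd68 1.98 and 2.29. The part of cell number in the C1q result was not tested.

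The lectin pathway genes of hepatocytes were lower. Mbl1 and Mbl2 encode mannose-binding lectins. Mbl1 stood at 203 to 238 CPM in the OGA libraries, 125 in the OGT control and 24.8 in OGT-KO (fell by 2.33), and Mbl2 at 307 to 348, 291 and 80.7 (fell by 1.85). The proteases that these lectins carry parted from each other. Masp2 fell by 1.85, from 185 to 51.5 CPM, while Masp1 stood at 138 against 154 (log2 -0.16, edgeR adjusted p = 0.264, and 0.21 by library totals). Masp1 gave 0.717 to 0.831 counts per count of Masp2 in 5 libraries and 2.68 (2.52 to 2.85) in OGT-KO.

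Among the genes that form the C3 convertases, C3 itself, the hub of the system, showed little difference. It stood at 10691, 11416, 11571 and 12163 CPM in the OGA libraries and at 8340 in OGT-KO against 8558 in its control (log2 -0.04, edgeR adjusted p = 0.748). The sign depends on the scaling: by library totals the log2 was 0.33 and edgeR called C3 as risen (adjusted p = 0.0174). C4b fell by 1.14, from 1340 to 607 CPM, and C2, which joins it in the classical convertase, fell by 1.76, from 25.6 to 7.49. Cfb, factor B of the alternative convertase, stood at 17.0 against 25.6 CPM and fell by 0.59, a call that was lost by library totals (log2 -0.22). Reads of C2 and Cfb are uncertain as single genes, since 58.0% and 81.4% of the 50-base words of their transcripts also occur in the readthrough gene Gm20547. For the same reason C1ra (50.8% of words shared, mostly with C1rb), Klkb1 (42.7%), C4b (35.2% with C4a), C1s1 (24.3% with C1s2), Kng1 and Kng2 (18.0% and 18.2% with each other) and Cd55 (13.3% with Cd55b) are uncertain.

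Complement regulators moved in both directions. C4bp, the plasma protein that binds C4b, stood at 543, 542, 551 and 534 CPM in the OGA libraries and at 55.5 in OGT-KO against 601 in its control, and fell by 3.43 (-3.51 to -3.36, edgeR adjusted p = 9.51e-05), a 10.8-fold difference. Its control was not below the OGA controls. Serping1, the inhibitor of C1 and of kallikrein, fell by 1.39, Cd59a, a membrane inhibitor of the pore, by 1.12, Vtn, vitronectin, by 0.79 and Cfi, the protease that inactivates C3b and C4b, by 0.51. The call of Cfi was lost by library totals (log2 -0.14). Cd55, a membrane protein that speeds convertase decay, stood at 7.09 against 4.68 CPM and was not called (log2 0.59), but by library totals it was called as risen.

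Clu, clusterin, a secreted chaperone that also binds the terminal complex, was the most abundant of the members that rose. It stood at 2286, 2177, 2541 and 2210 CPM in the OGA libraries and at 5580 in OGT-KO against 1718 in its control. Clu (ENSMUSG00000022037) rose by 1.70 (1.68 to 1.72, edgeR adjusted p = 0.000271), a 3.25-fold difference. In CPM per kilobase of exon its level was 1623 in OGT-KO, the third rank of the 52 members there, and 500 in the control. Clusterin is made by several liver cell types. In the same library 12 of 12 stellate cell and fibroblast markers rose (summed level 194 to 296 CPM in 5 libraries and 2504 in OGT-KO). So did 6 of 6 cholangiocyte markers with a row, of 8 listed (40.0 to 64.3 CPM in 5 libraries and 394 in OGT-KO). The 10 hepatocyte markers summed to 73068 CPM in OGT-KO and 97936 in its control. The part of each cell type in the Clu result was not tested.

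In the coagulation cascade the 5 genes of thrombin generation all fell, with a median log2 of -1.48. F2, prothrombin, stood at 2323, 2190, 2159 and 2157 CPM in the OGA libraries and at 539 in OGT-KO against 1503 in its control, and fell by 1.48 (edgeR adjusted p = 0.000334). F7, which starts the tissue factor pathway, fell by 1.69, and F9, the factor missing in haemophilia B, by 1.61. F10, the protease that cleaves prothrombin, fell by 1.06 and its cofactor F5 by 1.01. For each of these 5 genes OGT-KO was the lowest library and its control the next lowest. Of the 6 members whose proteins need vitamin K for their activity (F2, F7, F9, F10, Proc and Pros1), 5 fell and Pros1 rose.

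The contact system, which starts clotting on charged surfaces and releases bradykinin, held the member with the lowest ratio. Klkb1, plasma prekallikrein, stood at 195, 177, 196 and 196 CPM in the OGA libraries and at 4.37 in OGT-KO against 81.8 in its control. It fell by 4.20 (-4.50 to -3.96, edgeR adjusted p = 9.51e-05), an 18.4-fold difference, and its control was already below the OGA control of day 28 by a log2 of -1.26. F12, the factor that kallikrein activates, fell by 1.83, from 372 to 104 CPM. F11, the next protease, fell by only 0.50 within the OGT pair, a call lost by library totals, but its level was 106 to 137 CPM in the OGA libraries and 45.4 in the OGT control, a log2 of -1.59 between the controls.

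The kininogens, precursors of bradykinin, did not follow one another. Kng1 fell by 0.50, from 1246 to 879 CPM, and lost its call by library totals, while Kng2 rose by 0.37 (edgeR adjusted p = 0.0438), from 126 to 163. The Kng2 level in OGT-KO was still below that of every OGA library (229 to 283 CPM), and its call was lost by DESeq2 (adjusted p = 0.187) and without the line term in the edgeR fit, where its log2 was -0.21. DESeq2 also lost the calls of F11 (adjusted p = 0.121) and Cfb (adjusted p = 0.228). Kng1 gave 8.26 to 9.85 counts per count of Kng2 in 5 libraries and 5.39 (5.22 to 5.57) in OGT-KO.

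The 3 fibrinogen chains are encoded next to each other, and their promoters are shown because the genes parted in OGT-KO. In GRCm38.p6 the windows, from RefSeq, lie at chr3:83007474-83007723 (Fgg, plus strand), chr3:83025903-83026152 (Fga, plus strand) and chr3:83049864-83050113 (Fgb, minus strand). Capitals mark CTGGGAA and TTGCNNAA on either strand.
Fgg: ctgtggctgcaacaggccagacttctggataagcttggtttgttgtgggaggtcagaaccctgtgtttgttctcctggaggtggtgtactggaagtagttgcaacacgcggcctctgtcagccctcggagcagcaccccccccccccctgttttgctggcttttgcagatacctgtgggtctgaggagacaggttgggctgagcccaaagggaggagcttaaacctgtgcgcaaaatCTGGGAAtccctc
Fga: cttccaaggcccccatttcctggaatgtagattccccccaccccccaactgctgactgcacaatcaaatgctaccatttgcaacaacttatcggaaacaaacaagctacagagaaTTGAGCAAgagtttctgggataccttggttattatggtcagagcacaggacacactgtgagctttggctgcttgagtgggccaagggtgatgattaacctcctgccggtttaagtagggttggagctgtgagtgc
Fgb: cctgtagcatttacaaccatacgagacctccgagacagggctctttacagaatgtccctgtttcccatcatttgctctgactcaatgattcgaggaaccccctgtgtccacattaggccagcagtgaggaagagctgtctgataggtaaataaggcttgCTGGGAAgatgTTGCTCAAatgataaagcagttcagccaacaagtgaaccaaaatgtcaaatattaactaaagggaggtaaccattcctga

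The Fgb window holds CTGGGAA 91 bases and TTGCTCAA 80 bases before the start. Fgg holds CTGGGAA at 13 bases and Fga holds TTGAGCAA at 135 bases. Among other members, the searched windows held CTGGGAA in C6, Masp2, C1ra, Vtn and F9, which fell. They also held it in Fcna and Kng2, which rose, and in Tfpi, which was not called. TTGCNNAA was in C9, Klkb1, Serpinc1, C1ra, C1s1, F11, Cpb2 and F9, which fell. It was also in Kng2, which rose, and in C3, which was not called. Whether either motif goes with the direction of change was not tested.

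Fgg, the gamma chain, stood at 4335 and 5040 CPM at day 14, at 3708 and 4647 in the OGA pair of day 28, and at 2135 in OGT-KO against 3289 in its control. Fga, the alpha chain, stood at 6328, 7605, 5560 and 6987 CPM and at 5249 against 4429, and Fgb, the beta chain, at 5819, 6663, 5203 and 6047 CPM and at 6498 against 5379. Fgg in OGT-KO was below all other libraries, whereas Fga and Fgb lay within their range. Fgg fell by 0.62 (edgeR adjusted p = 0.00438), and Fga (log2 0.25, adjusted p = 0.0737) and Fgb (log2 0.27, adjusted p = 0.0514) were not called. By library totals Fga (0.62) and Fgb (0.64) were called as risen and Fgg (-0.25) was not called. Whichever scaling is used, the chains parted: Fga gave 1.35 to 1.51 counts per count of Fgg in 5 libraries and 2.46 (2.44 to 2.48) in OGT-KO, and Fgb gave 1.30 to 1.64 and 3.04 (3.02 to 3.07). The ratio of Fga to Fgb, 0.808 in OGT-KO and 0.823 in its control, hardly moved. F13b, the carrier subunit of the factor that cross-links fibrin, fell by 1.54.

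**Figure D3:**
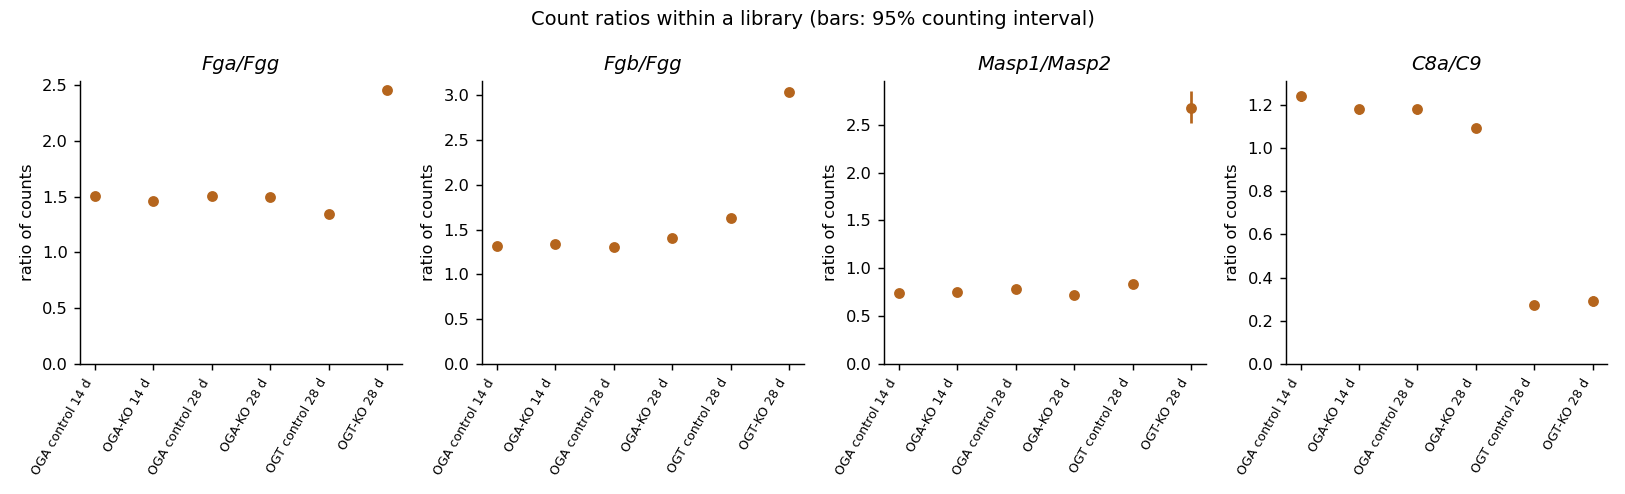
Ratios of counts between paired members within each of the 6 libraries, on linear axes from 0, with 95% counting intervals. OGT-KO stands apart for Fga over Fgg (2.46) and Masp1 over Masp2 (2.68), while both OGT libraries stand apart for C8a over C9.

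The inhibitors of clotting mostly fell with the factors they hold in check. Serpinc1, antithrombin, stood at 2200 to 2294 CPM in the OGA libraries and at 688 against 1715 in the OGT pair, and fell by 1.32. Serpind1, heparin cofactor, fell by 1.68 and Proc, protein C, by 1.98. Pros1, protein S, the cofactor of protein C, rose by 0.80 (edgeR adjusted p = 0.00177), from 36.9 to 64.4 CPM. Its OGT-KO level lay inside the range of the OGA libraries (59.3 to 78.2 CPM), the low value being that of the OGT control, and without the line term its log2 by edgeR was 0.19 (adjusted p = 0.76). Tfpi, the inhibitor of the tissue factor pathway, stood at 5.62 against 4.16 CPM and was not called (log2 0.43).

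Of the fibrinolysis genes Plg, plasminogen, stood at 3177 to 3412 CPM in the OGA libraries and at 732 against 2020 in the OGT pair, and fell by 1.46. Cpb2, which protects clots from plasmin, fell by 0.86 and Serpinf2, the plasmin inhibitor, by 0.48, a call that was lost by library totals. Outside the 53 members, 35 of 43 other listed coagulation and fibrinolysis genes had a row. Their log2 ratios in the OGT pair ran from -2.69 to 7.60, with a median of -0.59 (-0.22 by library totals). Plat, an activator of plasminogen, went from 13 counts in control to 3462 in OGT-KO and rose by 7.60. Thbs1 rose by 3.42 and Anxa2, a plasminogen receptor, by 2.99. The precursor plasminogen and its activator thus moved in opposite directions in this library.

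Of the hepatocyte members, 7 are known as acute phase genes: C3, Cfb, C9, Serping1, Fga, Fgb and Fgg. They summed to 22566 CPM in OGT-KO and 23222 in control, and 4 of them fell (Cfb, C9, Serping1 and Fgg, median log2 of the 7 -0.59). By library totals 2 of the 7 fell and 3 rose, with a median of -0.22. Most of that sum is C3 and fibrinogen. The other 34 hepatocyte members summed to 7352 against 17415 CPM, and 31 of them fell and 2 rose (median -1.58; by library totals 27 and 2, median -1.20). As a share of all counts, the 41 hepatocyte members held 4.09% in OGT-KO and 4.29% in control, against 5.08% to 5.72% in the OGA libraries. The share of the 6 myeloid members was 0.0928% in OGT-KO, 0.0161% in control and 0.00807% to 0.0102% in the OGA libraries. General hepatocyte markers were lower too: 7 of 10 fell, with a median of -0.55, although by library totals 4 fell and 2 rose. Ttr, transthyretin, fell by 1.47 and Alb, albumin, fell by 0.51. Of 21 listed regulators of secretory genes 9 fell, among them Cebpa (fell by 2.21), which encodes a C/EBP protein, and Hnf4a (fell by 0.97), and 3 rose, among them Cebpd (1.52) and Stat3 (0.54), through which interleukin-6 acts. By library totals 7 of the 21 fell and 6 rose, and by DESeq2 8 fell and 1 rose.

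Per kilobase of exon the order of the members changed with these shifts. In the OGA control of day 28 the highest were C3 (2365 CPM per kilobase), Fga (2321) and Fgg (2220), and in the OGT control C3 (1664), Fgg (1571) and Fga (1471). In OGT-KO they were Fga (1744), Fgb (1705), Clu (1623) and C3 (1622), with Fgg at 1020. C8a went from rank 15 in the OGA control to rank 30 in the OGT control and rank 46 in OGT-KO, and C1qb from rank 42 to 38 and 10.

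Beyond the 53, 23 of 30 other listed complement genes had a row. Their log2 ratios in the OGT pair ran from -3.83 to 2.95, with a median of -0.43 (-0.06 by library totals). Susd4, a complement inhibitor, fell by 3.83, Crp, a pentraxin that can activate complement, by 3.32 and Cd59b by 2.77. Cd93, a surface protein of endothelial and myeloid cells once taken for a C1q receptor, rose by 2.95.

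The OGA-KO pairs showed small differences. At day 14 none of the 51 members with at least 1 CPM was 2-fold higher or lower (0.534% and 0.305% of all genes were), and the ratios ran from -0.27 to 0.39. At day 28, 1 of 52 was higher and none lower (1.70% and 0.869% of all genes). The one was Cfd, factor D, the protease of the alternative pathway, which in mice is made chiefly by fat cells. It had 46 counts in OGA-KO of day 28 and 8 in its control (log2 2.34, 1.51 to 3.90), 3 and 5 counts at day 14 and 0 in both OGT libraries. A count of 0 allows up to 3 counts, or 0.107 to 0.130 CPM. In that library the fat cell markers Plin4 (1.16) and Cidec (0.62) were also above control, 4 of the 6 listed having no row. The summed level of these 2 markers did not follow Cfd across libraries: it was 22.0 CPM in OGA-KO of day 14, 21.8 in OGA-KO of day 28 and 88.9 in OGT-KO, where Cfd had 0 counts. The pancreatic enzymes Ctrb1 (904 counts) and Pnlip (727 counts), chosen after their values were seen, were present in it alone. The part of tissue other than liver in the Cfd result was not tested.

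Over both days edgeR called none of the 52 members for OGA-KO as risen or fallen, where it called 0.0249% of all genes as risen and 0.00832% as fallen. The smallest adjusted p was 0.209, and DESeq2 called none either. At an unadjusted p under 0.05 there were 10 by edgeR (19.2%, against 12.97% of all genes) and 3 by DESeq2 (5.77%, against 2.48%). By edgeR these were C1qa, C1qb, C1qc, C2, Cfp and Kng2 on the higher side and Hc, Fga, Fgb and Fgg on the lower side. The fibrinogen chains were lower in both pairs, at -0.27 and -0.33 for Fga, -0.20 and -0.22 for Fgb and -0.22 and -0.33 for Fgg. As a share of all counts fibrinogen held 1.52% in OGA-KO and 1.79% in control at day 14, and 1.30% and 1.60% at day 28. The C1q chains were higher in both, at 0.39 and 0.32 for C1qa, 0.37 and 0.45 for C1qb and 0.14 and 0.43 for C1qc. None of these differences passed the correction over all genes.

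**Figure D4:**
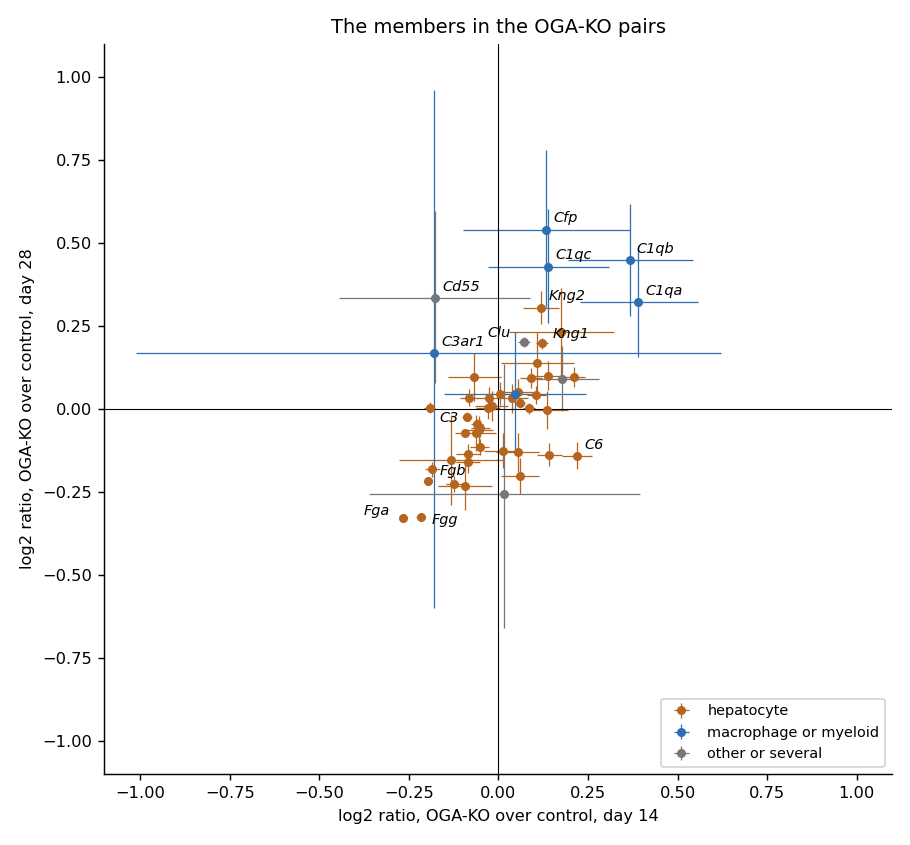
Log2 ratio of CPM, OGA-KO over control, at day 14 (horizontal axis) and day 28 (vertical axis) for the members, coloured by the cell that mainly makes the protein, with 95% counting intervals. Cfd, at 2.34 on day 28, lies outside the frame. Fga, Fgb and Fgg lie in the lower left and C1qa, C1qb and C1qc in the upper right.

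The knockout effects were then compared with each other. The edgeR contrast of the OGT-KO effect minus the OGA-KO effect called 34 members lower and 10 higher, where it called 22.7% and 21.4% of all genes. By edgeR, Fga (0.54, adjusted p = 0.0147) and Fgb (0.48, adjusted p = 0.0203) were among those higher, and Fgg was not called (-0.35, adjusted p = 0.0615). By DESeq2 Fga kept its call and Fgb lost it. Without the line term neither was called (log2 -0.019 for Fga and 0.34 for Fgb). Kng2, which rose in OGT-KO, was not called in the edgeR contrast (0.15, adjusted p = 0.413), nor was C3 (0.05, adjusted p = 0.762).

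The control libraries of day 28, both without knockout and both after PHX, also differed. With at least 1 CPM, 7 of 51 members were at least 2-fold lower in the OGT control than in the OGA control, and 1 was higher, against 5.72% and 4.72% of all genes. Those lower were Hc, C8a, C8b, C8g, Vtn (-1.03), F11 and Klkb1, and the one higher was C3ar1 (1.63). Below 0 were the ratios of 39 of the 41 hepatocyte members, the exceptions being C1ra (0.03) and C4bp (0.17), and those of 0 of the 6 myeloid members. The median over the 51 was -0.56, where that of all genes was 0.00. By library totals the median of all genes moves to 0.22. That shift is larger than the ratios of C1s1 (-0.19), Mbl2 (-0.16), C9 (-0.16) and Fgb (-0.17) in size, so the count of 39 depends on the scaling. Line and pool cannot be told apart here. Some members, such as C8a and Klkb1, were low in the OGT control. The fit without the line term sets OGT-KO against the controls of both lines, so the difference between lines enters its effect. This puts C8a at -4.80 and Hc at -2.95, where the fit with the line term gives -3.18 and -1.99. The share of all genes called without the line term is not given here. That fit called 26 members as fallen and 7 as risen, all of them also called the same way in the fit with the line term.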

How the data were processed

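Raw counts per Ensembl gene, 1 column per library with both lanes combined, and a table of CPM were deposited by the authors. The submitters' processing notes name STAR, Subread, edgeR and the build mm39, without versions or settings. The deposited CPM values are counts over a library total without a composition factor, as the values show, and served as a check only. How rows were filtered is not stated. Every row sums to at least 28 counts over the OGA libraries, while 56 rows are at 0 in both OGT libraries. Genes present only in the OGT libraries may therefore be missing. The lack of a row, as for C5ar1, says nothing about the level in OGT-KO. Symbols came from annotation of another build and matched 12019 of 12027 identifiers. The notes give no strand setting, so antisense overlap could not be judged.

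From the counts, CPM and pairwise log2 ratios were computed in R 4.3.3 with edgeR 4.0.16, adding a prior count of 2 and scaling libraries by TMM. Intervals of ratios (95%) are exact Clopper-Pearson intervals, given the sum of both counts. As reads carry no molecular identifiers, these intervals and the floor of 3 counts reflect counting error alone. The main test was an edgeR quasi-likelihood fit with line, day, OGA-KO and OGT-KO (5 coefficients), filterByExpr (12026 genes) and Benjamini-Hochberg adjustment over all genes. DESeq2 1.42.0 was an alternative. Scripts were tested on simulated counts. Alternatives covered scaling, prior count, minimum level, fold, design terms and filter. Levels per kilobase used the union of annotated exons, and shared sequence was measured in 50-base words of transcripts.

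Every member could be named, with up to 4 genes of each other list by the size of their OGT-KO ratio, the targeted genes, and marker genes that are abundant or differ in direction. The members and lists were chosen with earlier results of these data known.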

Additional observations from a re-analysis of the deposited data

Results flagged for a closer look

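In the OGA-KO pairs 4 members lay on opposite sides of control at days 14 and 28, with counting intervals that exclude 0 at both days. Mbl1, a mannose-binding lectin, had a log2 ratio of 0.060 at day 14 and -0.20 at day 28. C6 stood at 0.22 and -0.14, and C8b at 0.14 and -0.14, both genes of the terminal pathway. Serping1 stood at -0.082 and 0.034. With 1 library per group and day, the differences between days were not tested against any spread between libraries. These genes are abundant, so their counting intervals exclude 0 even at small ratios. The share of all genes that meet the same condition is not given here.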

How the results depend on the processing

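No paired analysis was possible because each group was 1 library, so the groups compared share only 1 replicate number. For OGT-KO the edgeR calls of 9 risen and 36 fallen members became 8 and 34 by DESeq2 (without Kng2, Cfb and F11), 9 and 35 without the day term, 7 and 26 without the line term and 14 and 30 by library totals. The same calls were made with DESeq2's size factors and without the low-count filter. By library totals 6 members lost their call (Cfb, Cfi, F11, Kng1, Fgg and Serpinf2), 4 gained one (Cd55, Fga, Fgb and Tfpi), and C3 turned to 0.33. Over all genes library totals turned the split of 3134 risen and 3198 fallen into 5334 and 1862. Without the line term Kng2 turned to -0.21 in OGT-KO, and in the contrast with OGA-KO Fga turned to -0.019 and Pros1 to -0.16. For OGA-KO 0 members were called under each alternative. The size rule passed 0 members in OGA-KO at day 28 when at least 5 CPM was required. At 1.5-fold it passed 29 between the controls, with C1qa, C1qb, C1qc and C3ar1 higher in the OGT control and the rest lower. The share of all genes at that fold is not given here.

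Shares of counts of the source classes are given next in the order OGA-KO and control of day 14, OGA-KO and control of day 28, OGT-KO and control. Over TMM effective libraries the hepatocyte members held 5.81%, 6.19%, 5.64%, 6.05%, 2.99% and 4.06%, and the myeloid members 0.0106%, 0.00899%, 0.0114%, 0.00893%, 0.0679% and 0.0152%. Without the most abundant member, C3 and C1qb, the shares were 4.37%, 4.67%, 4.04%, 4.37%, 2.95% and 3.39%, and 0.00749%, 0.00658%, 0.00783%, 0.00631%, 0.0677% and 0.0125%. Depth is low for Cfd and C3ar1, whose counts were at most 83 outside OGT-KO.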
